A study of Mus musculus with 32 samples.

Results

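A pair of knockout lines of mouse embryonic stem cells was set side by side by the positions of N6-methyladenosine (m6A) in their polyadenylated RNA. The Mettl14 knockout (labelled Mettl14 CKO, 2 libraries) was compared with the Mettl3 knockout (labelled Mettl3 CKO, 2 libraries). The cells are of the C57BL/6 strain and were grown with 15% FBS, LIF at 1000 U/ml, CHIR99021 at 3 µM and PD0325901 at 1 µM, additions that are used to hold stem cells undifferentiated. Each knockout has control cells of its own line (2 libraries of Mettl14 Control, 2 of Mettl3 Control), and chromatin-associated RNA of the same 4 kinds of cells was profiled as well. Where no fraction is named below, knockout and control lists are those of polyadenylated RNA. The labels do not say how the genes were deleted, how completely, or how many clones stand behind a line, and each genotype exists in 1 line, so genotype and line cannot be told apart. The 4 knockout lists held 23380 and 22654 peaks in the Mettl14 knockout and 22521 and 23239 in the Mettl3 knockout. Peaks of the 4 lists that shared 1 bp or more on the same strand were joined, which gave 33349 regions. Those termed Mettl14-knockout-specific are the ones where both Mettl14 knockout lists and neither Mettl3 knockout list held a peak (5415 regions, 16.2%), and those termed Mettl3-knockout-specific the opposite case (4392 regions, 13.2%). In shared regions all 4 lists held a peak (13024 regions, 39.1%). These 4 lists are 4 of the 16 peak lists of the series, which has 32 samples.

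METTL3 pairs with METTL14 in the nuclear enzyme that methylates adenosines in RNA, mostly within the sequence GGAC and close relatives. METTL3 holds the catalytic site, and METTL14 holds the complex together and helps it bind RNA, while cofactors such as WTAP, VIRMA, ZC3H13 and RBM15 anchor and direct it. In messenger RNA the mark is known to lie mainly around stop codons, in long exons and in 3′ untranslated regions, and in embryonic stem cells it is known to speed the decay of transcripts of pluripotency factors. An antibody against m6A also binds m6Am, a modified adenosine next to the cap at the very start of many messenger RNAs, which another enzyme, PCIF1, makes.

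Annotated transcription starts were one place where the lists of the knockouts differed. There, 51 Mettl14-knockout-specific (0.942%) and 187 Mettl3-knockout-specific regions (4.26%) touched the first 50 transcribed bases of a gene, against 3.29% of shared regions. In whole lists such peaks made up 2.01% and 1.98% in the Mettl14 knockout, against 2.77% and 3.20% in the Mettl3 knockout. The controls differed in the same direction, with 1.31% and 1.25% in the Mettl14 line, against 1.89% and 2.20% in the Mettl3 line. The first 30 transcribed bases are shown for the 4 protein-coding genes of each kind with the strongest peak that covers all of these bases, taken from RefSeq windows of the GRCm38.p6 assembly (the mm10 build of the peak lists). Each is given 5′ to 3′ on the strand of the gene, with GGAC in capitals. These 4 lie under Mettl14-knockout-specific regions:
Gm52481, chrY:90742729-90742758, plus strand: GGACagagagacgcacggaagccgggatgg
Zfp458, chr13:67268965-67268994, minus strand: agGGACtgtgcagggtggcgggtcgggcgc
Pank1, chr19:34877888-34877917, minus strand: aaaaagtgcgttgtttcacaacctgagact
Mex3a, chr3:88531946-88531975, plus strand: aaaagagtttgagcgctggaaggggctggg
These 4 lie under Mettl3-knockout-specific regions:
Zc3h7b, chr15:81745098-81745127, plus strand: gagacggagcctccagcgggtgctgccgcg
Sdc1, chr12:8771396-8771425, plus strand: agctccgcgggagaggtgcgggccagagga
Gm40378, chr6:73289807-73289836, minus strand: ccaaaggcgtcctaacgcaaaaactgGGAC
Gstm6, chr3:107943369-107943398, minus strand: agtgaaaggtgtaaaggcgtccctagaggt

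Pank1 encodes a pantothenate kinase of coenzyme A synthesis. The region over its start (chr19:34877880-34878408) had fold enrichments of 8.51 and 7.41 in the Mettl14 knockout, with no peak in either Mettl3 knockout list. Most of that region lies upstream of the annotated start. A fold enrichment here is the authors' deposited value for how far a peak stands above background, and a list without a peak gives no value. The start of Zc3h7b, a zinc finger RNA-binding protein, had no peak in the Mettl14 knockout and folds of 14.6 and 16.7 in the Mettl3 knockout. That of Sdc1, which encodes the cell surface proteoglycan syndecan, had none in the Mettl14 knockout and folds of 10.8 and 9.46 in the Mettl3 knockout. Of the 8 starts, 6 also held peaks in both controls of the line that marked them and in no control of the other, these 3 among them (folds of 6.41 and 7.85 for Pank1 in Mettl14 controls, 11.2 and 9.62 for Zc3h7b and 6.59 and 6.28 for Sdc1 in Mettl3 controls). The other 2 did not. Zfp458, specific to the Mettl14 knockout with 8.84 and 7.75, had no peak in the Mettl14 controls and 5.94 and 4.79 in the Mettl3 controls. Gstm6, specific to the Mettl3 knockout with 8.51 and 8.12, had none in any of the 4 controls. These 8 were chosen by strength. The control pattern of the 6 was found for 17.0% of all Mettl14-knockout-specific and 37.4% of all Mettl3-knockout-specific regions. Over the 50 bases after the start, GGAC occurred on the strand of the gene in 14 of 57 windows under Mettl14-knockout-specific regions (24.6%) and in 33 of 191 under Mettl3-knockout-specific regions (17.3%). The share was 26.1% of 449 windows under shared regions and 18.9% of all 32851 annotated windows. On the other strand, read as GTCC, it occurred in 10.5%, 17.3%, 13.6% and 17.4% of these windows. An A at the annotated first base was found in 24.6%, 33.5%, 31.2% and 34.4% of them. These motif and base shares are descriptions of the annotated windows, some of which lie close together.

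The lists of the 2 knockouts were of like length but not of like content. Replicates shared more of their covered sequence than lists of different knockouts did: the Jaccard index, the shared over the total covered length in bp, was 0.816 between the Mettl14 knockout lists and 0.736 between the Mettl3 knockout lists, against 0.508 to 0.513 for the 4 pairs across knockouts. The control lists behaved alike, with 0.773 for the Mettl14 controls, 0.760 for the Mettl3 controls and 0.535 to 0.561 across the lines. Of the 20283 regions marked in both Mettl14 knockout lists 26.7% were specific, and of the 18673 marked in both Mettl3 knockout lists 23.5%. Without Mettl3 knockout replicate 1 the counts were 6269 and 6706, and the Mettl3 side was the larger. A further 3101 regions lay just outside the rule, in 3 of the 4 lists, 6966 were in 1 list alone and 451 in 1 list of each knockout. Specific regions were weaker than shared ones. The lowest −log10 q over the lists that hold a region had a median of 19.97 in Mettl14-knockout-specific and 22.2 in Mettl3-knockout-specific regions, against 35.7 in shared regions, and was under 5 in 3.21%, 3.12% and 2.68% of them, where the lists begin at 2.00 to 2.02. With the specific and shared regions of each knockout split into 5 groups of like size by fold, the specific share was 8.51% in the strongest group of the Mettl14 knockout, against 24.2% to 41.8% in its other groups, and 10.8% in that of the Mettl3 knockout, against 24.7% to 31.7%. Specific regions were narrower than shared regions, with median widths of 255 bp and 187 bp against 477 bp. These are widths of joined peaks, from 2 lists in specific and 4 in shared regions, so the joining itself favours wider shared regions.

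**Figure D1:**
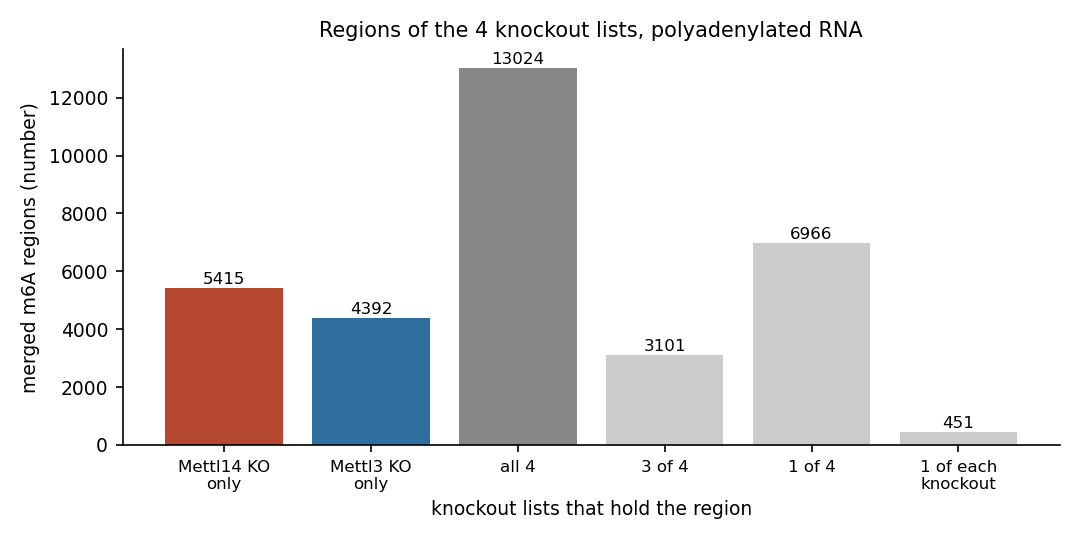
Number of merged m6A regions (vertical axis) by the knockout lists that hold them (horizontal axis), polyadenylated RNA. The first 3 bars are the Mettl14-knockout-specific (5415), Mettl3-knockout-specific (4392) and shared (13024) regions, and the light bars are the regions that meet none of these rules.

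Technical measures also differed between the lists. Read depth is unknown because only peak lists were used. The plus strand of the second EpiMark spike-in RNA had folds of 2.23 and 2.43 in the Mettl14 knockout and 1.42 and 1.39 in the Mettl3 knockout, and its minus strand 7.33 and 9.66 against 8.12 and 6.88. On the plus strand the groups did not overlap, and on the minus strand they did. The part of these differences in the results below was not tested. Peaks of the knocked-out genes do not check the genotype: Mettl14 had a peak in 1 Mettl14 knockout list (2.30) and in no Mettl3 knockout list, and Mettl3 had one in 1 Mettl3 knockout list (3.40) and in no Mettl14 knockout list. Of 10 stem cell marker genes 7 held a peak in each Mettl14 knockout list and 6 in each Mettl3 knockout list, Klf4, Esrrb, Zfp42, Sall4, Tfcp2l1 and Tdgf1 among them, while Pou5f1, Sox2 and Dppa5a held none.

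Along genes, Mettl14-knockout-specific regions gathered at the 3′ end and Mettl3-knockout-specific regions were spread over the gene body. Of the sense regions in protein-coding genes of known strand, the last 10% of the gene body held 41.8% of 2257 Mettl14-knockout-specific regions, 13.99% of 2723 Mettl3-knockout-specific regions and 35.5% of 8532 shared regions. The first 10% held 6.51%, 16.3% and 8.67%. The middle held 51.7%, 69.7% and 55.8%. Gene bodies include introns, so these shares are of the gene and not of the transcript. Regions touching an annotated start made up 0.942% of Mettl14-knockout-specific, 4.26% of Mettl3-knockout-specific and 3.29% of shared regions.

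**Figure D2:**
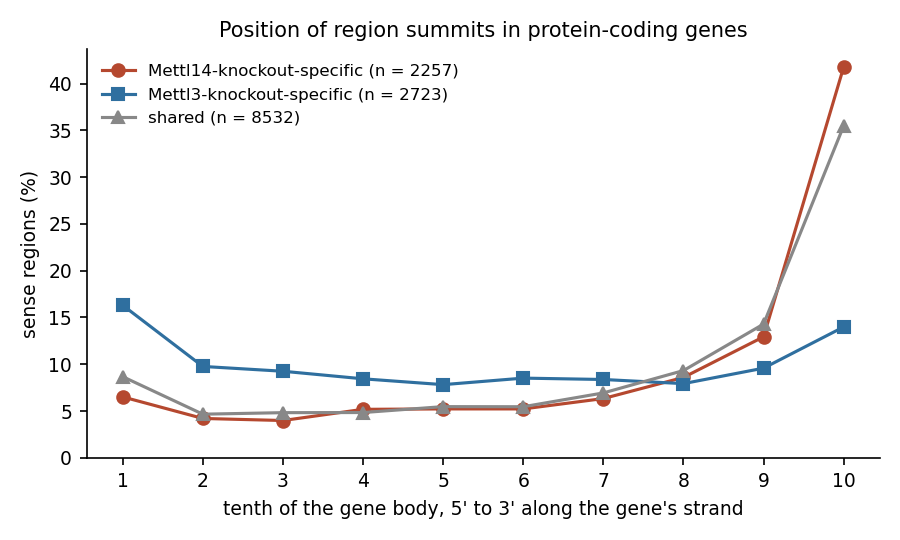
Share of sense regions (vertical axis, %) in each 10% of the body of protein-coding genes from 5′ to 3′ (horizontal axis), by class of region. Mettl14-knockout-specific and shared regions climb to 41.8% and 35.5% in the last 10%, where Mettl3-knockout-specific regions reach 13.99%.

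The same contrast was visible in each whole list. The last 10% held 36.3% and 36.7% of sense peaks in the Mettl14 knockout lists, against 28.6% and 28.4% in the Mettl3 knockout lists. It held 39.8% and 38.6% in the Mettl14 controls, against 33.4% and 32.8% in the Mettl3 controls. The knockout groups did not overlap, and nor did the control groups, which differed in the same direction. The first 10% held 8.86% and 8.71% of sense peaks in the Mettl14 knockout, against 11.1% and 11.8% in the Mettl3 knockout. For the controls these shares were 6.41% and 6.56% in the Mettl14 line, against 8.34% and 9.18% in the Mettl3 line. With 2 libraries a side the exact two-sided permutation test cannot go below p = 0.333, the value reached by both shares (adjusted p = 0.375 over 9 measures). The change between knockout and control did not differ detectably between the lines in an exact test that permuted these labels within each line (p = 0.556 for the last 10% and p = 0.778 for the first, with a smallest possible p of 0.0556). Nothing in the labels says that replicates are separate cultures, so the p-values measure the spread between libraries, which may be technical.

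Regions outside annotated genes and on the strand opposite a gene were more frequent on the Mettl14 side. Outside genes lay 1100 Mettl14-knockout-specific regions (20.3%), 287 Mettl3-knockout-specific regions (6.53%) and 572 shared regions (4.39%). Of regions in a protein-coding gene of known strand, 20.3% were antisense among Mettl14-knockout-specific ones, 5.75% among Mettl3-knockout-specific ones and 4.98% among shared ones. Many antisense regions faced a region on the sense strand at the same place, 309 of 576 (53.6%) on the Mettl14 side and 51 of 166 (30.7%) on the Mettl3 side. Antisense transcripts and incomplete strand separation were not told apart for them. With the 10000 strongest peaks of each list, 9.57% of Mettl14-knockout-specific and 4.95% of Mettl3-knockout-specific regions lay outside genes, and 6.70% and 3.53% were antisense. In whole lists, 9.84% and 9.33% of peaks lay outside genes in the Mettl14 knockout, against 5.15% and 5.34% in the Mettl3 knockout, while the controls had 6.06% and 6.30% in the Mettl14 line and 6.58% and 6.06% in the Mettl3 line. The knockout groups did not overlap (exact permutation p = 0.333), whereas the control groups did. Antisense peaks made up 9.83% and 9.47% in the Mettl14 knockout, against 5.77% and 5.66% in the Mettl3 knockout, and 8.07% and 8.77% in the Mettl14 controls, against 6.69% and 6.47% in the Mettl3 controls, so neither pair of groups overlapped. The covered length was 9.86 and 9.59 Mb in the Mettl14 knockout, against 7.77 and 7.99 Mb in the Mettl3 knockout. It was 6.85 and 7.30 Mb in the Mettl14 controls, against 8.55 and 8.70 Mb in the Mettl3 controls.

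The strongest regions outside genes were named by their positions. One on the minus strand at chr6:35339823-35340095, 2992 bp from 1700065J11Rik, had folds of 19.4 and 21.2 in the Mettl14 knockout. Another on the plus strand at chrX:164050651-164050919, 19784 bp from Siah1b, had folds of 19.3 and 18.8. On the Mettl3 side the strongest lay on the plus strand at chr8:123427355-123428684, 5340 bp from Tubb3, which encodes a neuronal tubulin, with folds of 14.1 and 14.3. All 3 held a peak in both controls of their own line, with folds of 11.97 and 14.5, of 7.76 and 11.7, and of 6.202 and 7.81. Of all Mettl14-knockout-specific regions 41.3% held peaks in both own controls, and of all Mettl3-knockout-specific ones 40.6%.

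The control lists played no part in defining the regions. Of the Mettl14-knockout-specific regions 41.3% (95% exact binomial interval 39.98 to 42.6) held a peak in both Mettl14 control lists and 22.5% (21.4 to 23.7) in both Mettl3 control lists. Of the Mettl3-knockout-specific regions 1.958% (1.57 to 2.41) held one in both Mettl14 control lists and 40.6% (39.1 to 42.04) in both Mettl3 control lists. Shared regions stood at 73.9% and 95.1%. With regions built from the 10000 strongest peaks of each knockout list, the shares were 91.04% and 83.9% for Mettl14-knockout-specific regions and 11.97% and 79.3% for Mettl3-knockout-specific ones. Those regions are another class than the ones above. The other knockout lacks a peak there only among its 10000 strongest, and its full lists may hold a weaker one. The intervals cover counting error over regions only, which are not replicates, and the Mettl14 control lists are shorter (16537 and 17738 peaks) than those of the Mettl3 controls (22165 and 22592).

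A peak pattern that separated the control lines in the same way, in both controls of the own line and neither of the other, was found for 923 Mettl14-knockout-specific regions (17.0%) and for 1643 Mettl3-knockout-specific regions (37.4%). The opposite pattern was found for 223 (4.12%) and 13 (0.296%). The control lists are unequal, and shared regions themselves held the pattern of the Mettl14 line (both of its controls, neither of the other) in 47 cases (0.361%) and that of the Mettl3 line in 2080 (15.97%). No control list of either line held 1693 Mettl14-knockout-specific regions (31.3%) and 1455 Mettl3-knockout-specific regions (33.1%), so in polyadenylated RNA these were listed in knockout cells alone. All 4 control lists held 808 Mettl14-knockout-specific regions (14.9%), which were absent from the Mettl3 knockout alone, and 67 Mettl3-knockout-specific regions (1.53%), which were absent from the Mettl14 knockout alone. The share in both own controls was highest among the strongest regions. With each class split into 5 groups of like size by the weaker fold, 66.02% of Mettl14-knockout-specific regions in the highest group were in both own controls, against 27.98% to 41.6% in the other groups. For Mettl3-knockout-specific regions the highest group had 53.01%, against 35.4% to 41.4% in the others.

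Chromatin-associated RNA, an RNA fraction still bound to chromatin, gave a second view of the same cells. Both Mettl14 knockout lists of this fraction held 55.6% of Mettl14-knockout-specific regions and both Mettl3 knockout lists 20.6%. For Mettl3-knockout-specific regions the shares were 44.6% in the Mettl14 knockout and 64.3% in the Mettl3 knockout. In both Mettl14 chromatin knockout lists and neither of the Mettl3 ones lay 1577 Mettl14-knockout-specific regions (29.1%), with 97 (1.79%) the other way round. In both Mettl3 ones and neither of the Mettl14 ones lay 652 Mettl3-knockout-specific regions (14.8%), with 90 (2.05%) the other way round. All 4 chromatin knockout lists held 946 (17.5%) and 1782 (40.6%), which were thus marked in both knockouts in that fraction. In the controls of that fraction, Mettl14-knockout-specific regions were in both Mettl14 lists in 71.2% and both Mettl3 lists in 51.99%, and Mettl3-knockout-specific regions in 30.8% and 53.4%.

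**Figure D3:**
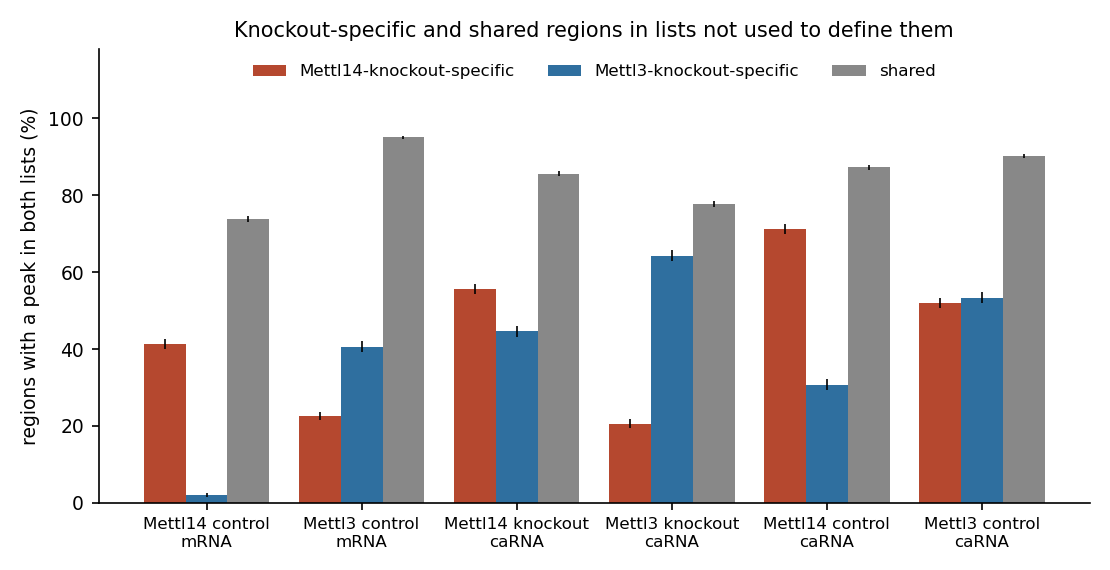
Share of regions (vertical axis, %) with a peak in both lists of each group named on the horizontal axis, none of which was used to define the regions. Bars are the 3 classes and error bars the 95% exact binomial intervals over regions; Mettl3-knockout-specific regions stand at 1.958% in the Mettl14 controls.

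At the level of genes, with summits lying in 1 gene alone, 1055 of 11164 marked genes were Mettl14-knockout-specific (9.45%), 981 Mettl3-knockout-specific (8.79%) and 7138 shared (63.9%). Protein-coding genes made up 829, 891 and 6845 of them, and long noncoding RNA genes 106, 43 and 155. Most specific regions in 1 gene did not make a specific gene. Of these, 2468 of 3981 Mettl14-knockout-specific and 2398 of 3773 Mettl3-knockout-specific regions lay in genes shared by the knockouts.

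The Mettl14-knockout-specific genes with the strongest peaks were led by Hydin, which encodes a protein of the ciliary axoneme. Its region on the strand of the gene (chr8:110532638-110533192) had folds of 33.4 and 38.3 in the Mettl14 knockout and no peak in the Mettl3 knockout, and 23.6 and 11.9 in the Mettl14 controls, against 5.20 in 1 Mettl3 control. Sorcs2, a sorting receptor of neurons, followed with 23.8 and 22.4 (chr5:36238592-36239852) and carried 5 specific regions. Hrk, a pro-apoptotic member of the BCL2 family, had 19.1 and 15.3 (chr5:118184636-118185030). Btla, an inhibitory receptor of lymphocytes, had 14.3 and 12.9, and Treml2, another receptor of immune cells, 15.5 and 12.8. Usp17lb, a deubiquitinase gene with close copies, had 21.4 and 16.1. Gm1070, Gm4302, Tmem132d and A830018L16Rik complete the first 10, with folds between 12.8 and 19.0. For each of the 10 regions both Mettl14 controls held a peak, as did 41.3% of all Mettl14-knockout-specific regions. Both knockout folds lay above both control folds in each, but the 10 were chosen by their knockout folds, which favours this. In 6 of the 10 no Mettl3 control held a peak. Peaks in both own controls and in neither control of the other line were found for 17.0% of all Mettl14-knockout-specific regions. The share was 29.7% in their highest group by the weaker fold.

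On the Mettl3 side the first gene was Grk5, a kinase of G protein-coupled receptors, with folds of 20.7 and 17.6 (chr19:60929979-60930251), on the strand opposite the gene. Cenpk, a kinetochore protein, had 19.2 and 16.2 (chr13:104230675-104230854). Rspo3, a secreted activator of Wnt signalling, had 12.2 and 12.3 (chr10:29453960-29454442). Bmpr1b, a receptor for bone morphogenetic proteins, had 11.9 and 11.9, and Osr1, a zinc finger transcription factor of early mesoderm, 11.7 and 13.97. Htr2a, a serotonin receptor, had 11.9 and 14.1, Adra2a, an adrenergic receptor, 13.8 and 11.3 and 4 specific regions, and Map2, a microtubule protein of dendrites, 14.4 and 11.2 and 6 specific regions. Slc25a12, a mitochondrial carrier of aspartate and glutamate whose region lay antisense, and Ube2q2, a ubiquitin-conjugating enzyme, had folds between 11.6 and 13.6. All 10 regions held a peak in both Mettl3 controls and in no Mettl14 control, so these 10 also separated the control lines. Over all Mettl3-knockout-specific regions 37.4% did so, and 51.6% in their highest group by the weaker fold. In 9 of the 10 both knockout folds lay above both Mettl3 control folds, which the choice by knockout fold favours. With peaks on the strand of the gene alone Grk5 and Slc25a12 lost the call, and with summits in overlapping genes counted for each of them Grk5 and Cenpk did.

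**Figure D4:**
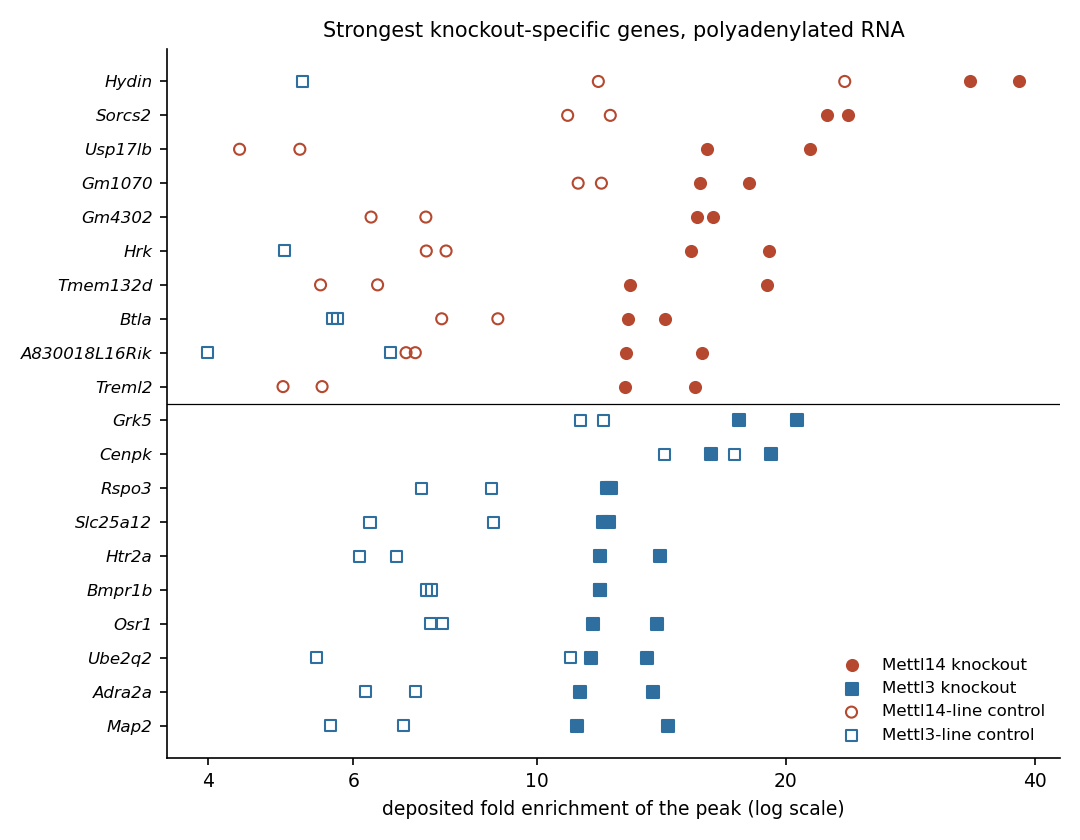
Deposited fold enrichment (horizontal axis, log scale) of the strongest region of each named gene (rows) in the lists of polyadenylated RNA. Filled symbols are knockout libraries and open symbols control libraries, circles the Mettl14 line and squares the Mettl3 line, and a list without a peak has no symbol. For the 10 Mettl3-knockout-specific genes no symbol of the Mettl14 line appears.

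Some genes held many specific regions of 1 kind. Ttn, the giant muscle protein titin, held 9 Mettl14-knockout-specific regions, Zfp993 8, Brca2, a DNA repair gene, 7, and Clca3b and the ephrin receptor gene Epha4 6 each. None of these held a Mettl3-knockout-specific region, but shared regions numbered 20 in Ttn, 5 in Zfp993, 3 each in Brca2 and Epha4 and 0 in Clca3b. The protocadherin-like gene Fat4 held 11 Mettl3-knockout-specific regions, the non-muscle myosin gene Myh9 9, the homeobox gene Zfhx4 8, and Erc1 and Pakap 7 each, with 0 Mettl14-knockout-specific ones. Shared regions numbered 1 in Fat4, 2 in Myh9, 0 in Zfhx4, 5 in Erc1 and 6 in Pakap. A total of 571 genes held a region of each kind. Among these Baz2b, a bromodomain protein, held 5 Mettl14-knockout-specific, 6 Mettl3-knockout-specific and 5 shared regions. In Usp34, a deubiquitinase, a region at chr11:23367228-23367407 had folds of 10.9 and 8.35 in the Mettl14 knockout alone, and one nearer the start, at chr11:23306456-23306644, 9.21 and 10.01 in the Mettl3 knockout alone. Slc2a1, Slc2a3, Zfp978 and Mcc were the others with the strongest regions on both sides. The 2 glucose transporter genes had folds of 9.06 and 11.01 (Slc2a1) and 10.8 and 8.83 (Slc2a3) in the Mettl14 knockout, against 12.5 and 10.3 and 9.43 and 9.87 at other places in the Mettl3 knockout. Both Slc2a1 regions were antisense. Those of Slc2a3 lay on opposite strands, with the strand of the gene unknown.

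Of the gene lists examined, the pluripotency list leaned most to the Mettl14 knockout. It held 28 Mettl14-knockout-specific and 2 Mettl3-knockout-specific regions of 99 (28.3% and 2.02%), where all regions in 1 gene stood at 14.3% and 13.5%. For a gene of a list, the fold given is that of its strongest peak in each library, which need not be the same region in both. Nanog, a core factor of the stem cell state, had folds of 2.66 and 2.43 in the Mettl14 knockout, no peak in the Mettl3 knockout, 1.499 in 1 Mettl14 control and 1.69 and 2.32 in the Mettl3 controls. Prdm14, a repressor of differentiation, had 5.42 and 6.51 in the Mettl14 knockout and no peak in the Mettl3 knockout. Lin28b, which blocks let-7 maturation, had 3.70 and 5.55 and no peak in the Mettl3 knockout. These 3 were the specific genes of the list, and 22 of its 28 marked genes were shared. Within shared genes, Sall4 and Tbx3 held 5 Mettl14-knockout-specific regions each and Klf4 3, against 0 for the Mettl3 knockout in all 3. Of the 28 regions 14 were in both Mettl14 controls and 13 in both Mettl3 controls. Antisense ones numbered 7. Regions in Sall4, Tbx3, Myc, Klf5, Dppa4, Fbxo15 and Prdm14, genes of unknown strand, could not be called sense or antisense. Those of Sall4 lay on both strands, as did those of Tbx3. Among all Mettl14-knockout-specific regions in a protein-coding gene of known strand 20.3% were antisense. Nr5a2 and Zfp42 held the 2 Mettl3-knockout-specific regions, and Zfp42 also 2 antisense Mettl14-knockout-specific ones. The counts became 18 and 2 with strand ignored, 10 and 5 with the 10000 strongest peaks of each list, and the 2 became 7 without Mettl3 knockout replicate 1 and 5 without replicate 2 of that knockout or replicate 1 of the Mettl14 knockout.

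Markers of differentiation and immediate early genes leaned the same way. The epiblast and germ layer list held 11 Mettl14-knockout-specific and 4 Mettl3-knockout-specific regions of 40 (27.5% and 10%). All regions in 1 gene stood at 14.3% and 13.5%. Foxa2 and Sox17, endoderm transcription factors, had folds of 4.47 and 4.72 and of 3.71 and 3.26 in the Mettl14 knockout, and no peak in the Mettl3 knockout or in any control. Hand1, a factor of mesoderm and trophoblast, had 7.53 and 6.24 in the Mettl14 knockout and no peak in the Mettl3 knockout. Otx2, an epiblast factor, had 3.16 and 3.71 and no peak in the Mettl3 knockout, while all 4 controls had higher folds, 7.82 and 8.28 in the Mettl14 line and 6.64 and 5.73 in the Mettl3 line. Of 10 markers of differentiated derivatives 8 held a peak in each Mettl14 knockout list and 5 in each Mettl3 knockout list, with summed folds of 69.2 and 56.2 against 34.2 and 31.6, while the controls of each line had 3 and 4 and Sox1 and Pax6 held none in the knockouts. Immediate early factors held 11 and 1 of 60 regions (18.3% and 1.67%). Among them on the Mettl14 side were 2 each in Dusp6, a phosphatase of ERK signalling, Srf, Klf10 and Myc. Those of Klf10 lay on opposite strands, as did those of Myc, with the strand of both genes unknown. Of the 25 marked genes of the immediate early list 23 were shared and none was specific, where 63.9% of all marked genes were shared. Without Mettl3 knockout replicate 1, 4 regions in place of 1 were Mettl3-knockout-specific, and without Mettl14 knockout replicate 1, 2. With the 10000 strongest peaks alone the germ layer counts were 2 and 1. In bulk cultures, more cells of another type and more RNA per cell cannot be told apart, and peak presence measures neither methylation level nor RNA level.

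Specific regions of fibroblast genes leaned to the Mettl3 knockout, with 0 Mettl14-knockout-specific and 16 Mettl3-knockout-specific regions of 39. These shares were 0% and 41.0%, against 14.3% and 13.5% over all genes. Of the 16 marked genes of the list 11 were shared. Among them, Pdgfrb had folds of 7.14 and 4.91 in the Mettl14 knockout, against 5.20 and 4.83 in the Mettl3 knockout. Col1a2 had 3.20 and 3.22 against 3.92 and 3.77. Col6a1, a collagen gene, was marked in both knockouts, with folds of 8.62 and 7.30 in the Mettl14 knockout, against 22.5 and 22.4 in the Mettl3 knockout. Acta2, smooth muscle actin, had 2.67 and 2.23 in the Mettl14 knockout, against 10.4 and 8.50 in the Mettl3 knockout, and its 2 Mettl3-knockout-specific regions were both antisense. Col6a2 had no peak in the Mettl14 knockout and 6.21 and 6.69 in the Mettl3 knockout, with 3 specific regions. Col3a1 had none and 1.85 and 2.36, and Thy1, a surface marker, none and 4.03 and 3.72. Of 10 feeder markers 5 held a peak in each Mettl14 knockout list and 8 and 7 in the Mettl3 knockout lists, with summed folds of 23.1 and 19.1 against 53.8 and 47.8. The controls had 3 and 3 in the Mettl14 line and 6 and 8 in the Mettl3 line, and Postn and Mmp2 held none in these 8 lists. The part of feeder or differentiated cells in the other results was not tested.

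Genes of the m6A machinery were shared no more often than marked genes at large, of which 63.9% were shared. Its writers and cofactors held 8 Mettl14-knockout-specific, 3 Mettl3-knockout-specific and 22 shared regions of 54, 14.8% and 5.56% specific against 14.3% and 13.5% over all genes, and 8 of the 14 genes were shared. Without Mettl14 knockout replicate 2 the specific counts were 14 and 5. Mettl16, which methylates U6 RNA and the Mat2a transcript, had folds of 3.56 and 2.67 in the Mettl14 knockout and no peak in the Mettl3 knockout. Mettl5, the 18S ribosomal RNA methyltransferase, had no peak in the Mettl14 knockout and 5.47 and 6.14 in the Mettl3 knockout, and none in any control of polyadenylated RNA. In chromatin-associated RNA its region held a peak in all 8 lists, with 8.55 and 8.75 in the Mettl14 knockout, against 7.66 and 8.29 in the Mettl3 knockout. Zc3h13, the cofactor with most regions, held 1, 2 and 9 shared. Readers and erasers held 5 and 12 of 66 regions (7.58% and 18.2%), and 9 of their 16 marked genes were shared. Igf2bp1, a reader that stabilises its targets, had weak peaks of 1.25 and 1.25 in the Mettl14 knockout and none in the Mettl3 knockout. Fxr2 and Hnrnpa2b1, RNA-binding proteins counted among readers, had none in the Mettl14 knockout and 3.21 and 3.07, and 2.29 and 2.18, in the Mettl3 knockout. The YTH-domain readers Ythdf1, Ythdf2, Ythdf3 and Ythdc1 and the demethylases Fto and Alkbh5 were all marked in the 4 lists.

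Genes of chromatin regulation were mostly shared, where 63.9% of all marked genes were. The Polycomb list held 20 Mettl14-knockout-specific and 10 Mettl3-knockout-specific regions of 102 (19.6% and 9.80%), where all regions in 1 gene stood at 14.3% and 13.5%. Of the 31 marked genes of that list 26 were shared. Its 2 specific genes were the methyltransferases Ezh1 and Ezh2, with no peak in the Mettl14 knockout or in any Mettl14 control. Their folds in the Mettl3 knockout were 5.64 and 3.30 for Ezh1 and 2.42 and 5.13 for Ezh2. Ring1, the ubiquitin ligase of the first Polycomb complex, held a Mettl14-knockout-specific region with 12.98 and 8.16. The H3K4 and H3K9 list held 28 and 14 of 148 regions, 18.9% and 9.46% (the 14 became 24 without Mettl3 knockout replicate 1). Its specific genes were all on the Mettl3 side: Cbx3 and Cbx5, heterochromatin proteins, with 3.26 and 4.64 and with 2.94 and 2.64, and Dpy30, a subunit of H3K4 methyltransferases, with 2.59 and 2.91. DNA methylation genes held 8 and 11 of 71 regions, 11.3% and 15.5% (17 and 18 in place of 11 without Mettl3 knockout replicate 1 or 2). Both specific genes, Dnmt1 (4.64 and 4.62) and Dnmt3b (2.55 and 2.42), were of the Mettl3 knockout. Chromatin remodellers held 22 and 34 of 204 regions (10.8% and 16.7%), with Smarca5 (4.67 and 5.22) specific to the Mettl3 knockout.

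Genes of metabolism and translation leaned to the Mettl3 knockout. Nuclear genes of oxidative phosphorylation held 2 Mettl14-knockout-specific and 29 Mettl3-knockout-specific regions of 91 (2.20% and 31.9%). All regions in 1 gene stood at 14.3% and 13.5%. Leaving out either Mettl14 knockout library raised the 2 to 4, and leaving out Mettl3 knockout replicate 1 the 29 to 48. At gene level 1 of the 51 marked genes was Mettl14-knockout-specific, Cox7b2, and 18 were Mettl3-knockout-specific, where 9.45% and 8.79% of all marked genes were. Atp5e had an antisense region with 8.19 and 6.81 and a sense region with 2.28 and 1.85 in the Mettl3 knockout, and the region of Cox7b2 (4.90 and 5.26 in the Mettl14 knockout) was antisense. Sense regions lay in Atp5g1, with 6.01 and 7.42, and in Ndufb1, with 6.56 and 6.68. Ribosomal protein genes held 3 and 18 of 43 regions (6.98% and 41.9%). Rpl4 (4.60 and 8.20) and Rpl10l (4.08 and 4.27) were specific to the Mettl14 knockout. The Mettl3 knockout had 13 specific genes, led by Rps23 (6.32 and 7.77) and Rpsa (5.29 and 6.39). The strongest of these, in Rpl4, Rps23 and Rpsa, lay antisense. Of the Mettl3-knockout-specific regions of these lists, 16 of 29 and 13 of 18 separated the control lines in the same way. Over all Mettl3-knockout-specific regions 37.4% did so. Glycolytic enzymes held 5 and 11 of 38 regions (13.2% and 28.9%), and 7 genes were specific to the Mettl3 knockout. These were Pfkm with 7.74 and 8.01, Pgam2 with 5.47 and 4.64, Pgk1 with 4.25 and 3.68, and Eno1, Eno2, Ldhb and Pgam1 below them. Without Mettl3 knockout replicate 2 the 11 regions became 17. Pgam1 had no peak in the Mettl14 knockout, while its controls had 12.9 and 14.3. Replication-dependent histone genes, whose near-identical copies can share reads, held 0 and 10 of 27 regions (0% and 37.0%). H3c13 (10.9 and 11.2) and H3c3 (9.42 and 12.4) led them. Of the mitochondrially encoded regions 0 and 4 of 8 were specific, with folds of at most 1.87.

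**Figure D5:**
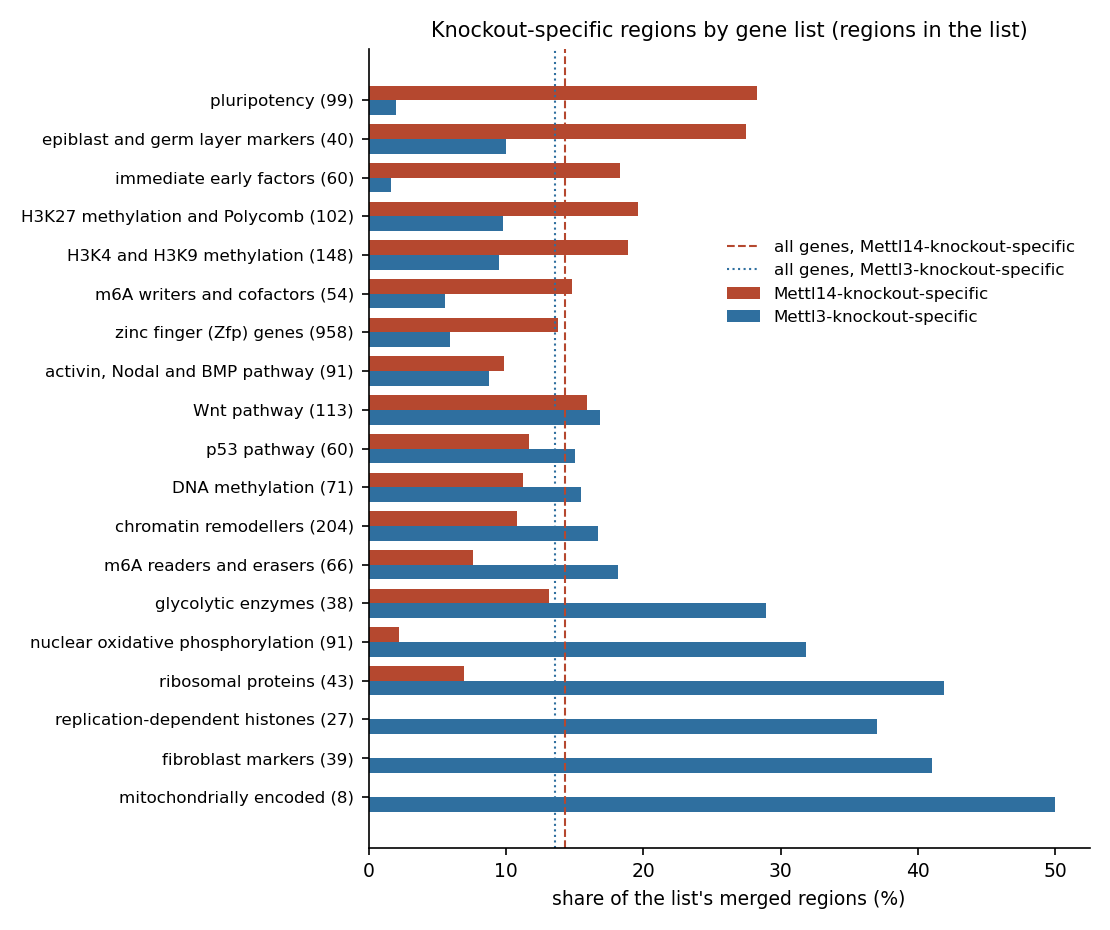
Share of each gene list's merged regions (horizontal axis, %) that were Mettl14-knockout-specific or Mettl3-knockout-specific, with the number of regions of the list in brackets. Dashed and dotted lines give the shares over all genes (14.3% and 13.5%). The pluripotency list stands at 28.3% and 2.02%, the fibroblast list at 0% and 41.0%.

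Signalling genes and zinc finger genes were counted as well. The Wnt list held 18 and 19 of 113 regions (15.9% and 16.8%), where all regions in 1 gene stood at 14.3% and 13.5%. Tcf7, a transcription factor of the pathway, had folds of 8.37 and 9.53 in the Mettl14 knockout and no peak in the Mettl3 knockout, and Wls, which exports Wnt proteins, had none and 6.02 and 8.61. The activin, Nodal and BMP list held 9 and 8 of 91 regions, 9.89% and 8.79% (13 in place of 8 without Mettl3 knockout replicate 1). Bmp7 (2.02 and 4.83) was on the Mettl14 side and Bmpr1b and Smad9 (5.67 and 5.24) on the Mettl3 side. The p53 list held 7 and 9 of 60 regions, 11.7% and 15% (13 in place of 7 without Mettl14 knockout replicate 1). Fas, a death receptor, had no peak in the Mettl14 knockout and 7.49 and 12.1 in the Mettl3 knockout, with Bax at 3.13 and 3.53 and Trp53 at 4.74 and 2.19. Zinc finger (Zfp) genes held 132 and 57 of 958 regions, 13.8% and 5.95%, and the 57 became 102 and 89 without Mettl3 knockout replicate 1 or 2. Some of these genes, such as Zfp993 and Zfp978 of chromosome 4, have close copies and their reads can be shared. Chromosome 4 also had the highest share of Mettl14-knockout-specific regions among the autosomes, 19.9% of 2242, and chromosome 9 the lowest, 13.8% of 1728. Mettl3-knockout-specific regions ran from 9.78% on chromosome 8 to 16.7% on chromosome 3 among them.

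Shared regions differed in their order of strength. Each of the 13024 regions was ranked by its fold within each list, on a percentile scale of 0 to 100. The ranks of the 2 Mettl14 knockout lists differed by a median of 6.44 points and those of the 2 Mettl3 knockout lists by 7.997, while lists of different knockouts differed by 13.3 to 13.8. Spearman's rho across regions was 0.879 and 0.830 within the knockouts and 0.654 to 0.670 across them. Regions of 1 library share its depth and are not independent replicates. Both Mettl14 knockout ranks lay above both Mettl3 knockout ranks in 4107 regions (31.5%), and below both in 3914 (30.1%), with gaps of at least 25 points in 567 and 768.

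The gap was widest for Wtap, whose protein brings METTL3 and METTL14 to RNA. Its region at chr17:12974554-12975550, on the strand of the gene, had folds of 2.38 and 2.30 in the Mettl14 knockout, against 10.3 and 11.6 in the Mettl3 knockout. That placed it at the percentiles 6.38 and 5.47, against 86.3 and 90.7, a gap of 79.9 points. The controls of the lines were apart in the same way, with 1.57 and 1.67 in the Mettl14 line, against 12.8 and 9.03 in the Mettl3 line. A second place in Wtap, nearer its 3′ end (chr17:12969497-12969661), was Mettl14-knockout-specific, with 4.33 and 4.68. H2bc8, a histone gene with near-identical copies, had 2.81 and 2.95 in the Mettl14 knockout, against 8.80 and 11.5 in the Mettl3 knockout, Dennd4c, where the region lay antisense, 3.35 and 3.05 against 13.8 and 9.78, and Rock1 2.59 and 2.46 against 8.20 and 12.6. In the other direction, Tcaf1, a regulator of a cold-sensing channel, had 13.5 and 13.6 in the Mettl14 knockout, against 3.32 and 2.77 in the Mettl3 knockout. All 4 of its control folds lay between 2.19 and 2.69. Rad52, of homologous recombination, had 8.25 and 9.81 against 1.98 and 2.07. Its controls had 2.94 and 7.91 in the Mettl14 line and 2.21 and 3.20 in the Mettl3 line. Coa6, an assembly factor of cytochrome oxidase, had 9.06 and 8.42 against 1.57 and 2.01, while its controls lay between 6.77 and 8.59 in both lines. Ahnak2 and Rcc1l had gaps of 64.9 and 63.05 points. By lists, the median difference in rank, Mettl14 minus Mettl3 knockout, was 10.03 points over 14 regions of germ layer markers and −32.0 over 9 of histone genes, against 0.712 over all 11449 shared regions in 1 gene.

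The shared regions with the strongest peaks throughout were those of Elk4, an ETS transcription factor (chr1:132017528-132018450), with 27.999 and 36.8 in the Mettl14 knockout, against 25.3 and 27.4 in the Mettl3 knockout. Pth1r, the parathyroid hormone receptor, had 22.9 and 25.05 against 33.4 and 33.0, and the groups did not overlap. Acvr2a, an activin receptor, had 34.1 and 27.4 against 23.3 and 22.3. Gm20517, Ogfrl1 and Sowahc had folds between 22.0 and 33.5 in the 4 lists.

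Few knockout-specific regions lay on a microRNA hairpin, 2 on the Mettl14 side and 6 on the Mettl3 side (0.0369% and 0.137%, against 0.131% of shared regions). The 13 mature microRNAs that lie wholly inside such a region, from 7 hairpins, had 13 different seeds. Those of the Mettl14-knockout-specific regions and of the 2 strongest Mettl3-knockout-specific ones are shown 5′ to 3′ from RefSeq (GRCm38.p6), with the seed, bases 2 to 8, in capitals. Those of Mir5114 and Mir7048 belong to the Mettl14 side and the others to the Mettl3 side:
mmu-miR-5114: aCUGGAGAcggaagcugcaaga
mmu-miR-7048-5p: cGGGGCUGagaggugaggaagc
mmu-miR-7048-3p: uCUUCCAUucucuuuccccag
mmu-miR-6902-5p: uUCCUCACauugucacaugaag
mmu-miR-6902-3p: cCAUGUGAuguguggguucag
mmu-miR-7225-5p: aCGUAGACuguguagaagcc
mmu-miR-7225-3p: cUUCUAGAcagccucugcagca

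The region over Mir6902 (chr1:93346090-93346254) had no peak in the Mettl14 knockout and folds of 11.9 and 12.99 in the Mettl3 knockout, with 14.5 and 14.6 in the Mettl3 controls and none in the Mettl14 controls. In chromatin-associated RNA both knockouts marked it, with 10.6 and 5.47 in the Mettl14 knockout, against 11.6 and 12.4 in the Mettl3 knockout. The region over Mir7225, in Pde4dip, had none in the Mettl14 knockout and 7.04 and 8.004 in the Mettl3 knockout, and no peak in any other list. That over Mir5114, in Scd2, an enzyme of fatty acid desaturation, had weak folds of 1.60 and 1.68 in the Mettl14 knockout and none in the Mettl3 knockout. That over Mir7048 had 4.61 and 3.48 and none. A peak over a hairpin does not tell a primary microRNA transcript from its host.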

How the data were processed

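RNA carrying m6A was enriched with the EpiMark antibody kit, with its spike-in RNA added, and libraries were made with a stranded SMARTer kit, per the labels' protocols. Tools named in the submitters' processing notes, without their role, are SAMtools 1.9, HISAT2 2.1.0, Trimmomatic 0.38 and CASAVA, and the build is mm10. For the peak caller, its scaling and the read depth the sources used here give nothing. The authors deposited 1 strand-specific list per immunoprecipitation library, with a fold enrichment (a ratio), −log10 p, −log10 q and a summit offset per peak. The 16 input samples were not analysed here.

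Spike-in peaks were set aside and peaks merged by strand with Python 3.11.15, numpy 2.4.6, pandas 2.3.3 and scipy 1.17.1. Gene bodies of 49980 genes came from a RefSeq table of GRCm38.p6. Strand came from RefSeq start windows, which covered 80.5% of the marked protein-coding genes. Alternatives were other overlap rules, stricter q or fold, the 10000 strongest peaks, strand ignored, each library left out, other gene assignments and a replicate block. Merging and class counts were tested on simulated data. Differences between 2 and 2 libraries used exact two-sided permutation tests with Benjamini-Hochberg adjustment over 9 measures, of which antisense share and share at annotated starts were added after the data were seen. Deposited folds were not tested between lists. Named genes were the first 10 per knockout by the weaker fold of a specific region in a gene specific at gene level, 6 shared genes, 6 with regions of both knockouts, 5 per direction by rank (1 of them is not reported here) and 5 per knockout by number of regions, and specific members of gene lists, up to 5 per list and direction. Members of lists that are shared, the start sites, the microRNAs and the regions outside genes were chosen after their values were seen. Members and lists were chosen with earlier results of these data known.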

Additional observations from a re-analysis of the deposited data

Results flagged for a closer look

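A total of 3 measures moved in opposite directions in the lines, so that both knockout libraries of one line lay above both of its controls and both of the other lay below theirs. The covered length was 2.65 Mb higher in the Mettl14 knockout than in its controls and fell by 0.749 Mb in the Mettl3 knockout against its own, a difference between the lines of 3.40 Mb. The share of peaks outside genes was higher by 3.41 points in the Mettl14 knockout and fell by 1.08 points in the Mettl3 knockout, a difference of 4.48 points. The share of antisense peaks was higher by 1.23 points in the Mettl14 knockout and fell by 0.866 points in the Mettl3 knockout, a difference of 2.095 points. This arrangement by itself fixes each p at the smallest value that the exact permutation within lines can give (p = 0.0556). The adjusted p over 9 measures was 0.167, and neither value adds support to these differences.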

How the results depend on the processing

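Whether a peak is listed depends on depth, which is unknown. When each library was dropped in turn and the call left to its partner, there were 6269 to 7292 Mettl14-knockout-specific regions (19.8% to 22.5%), 4952 to 6706 Mettl3-knockout-specific ones (15.3% to 21.2%) and 13659 to 14033 shared ones, and without Mettl3 knockout replicate 1 the order of the specific counts turned (6269 against 6706). The class differences, Mettl14-knockout-specific minus Mettl3-knockout-specific, then ran from 11.7 to 14.1 points outside genes, from 12.2 to 15.2 antisense and from −3.42 to −2.43 at annotated starts. The difference in peak number ran from −226 to 500 and had no settled direction. The other per-library differences kept their direction. The 10000 strongest peaks of each list gave 2445 Mettl14-knockout-specific, 2180 Mettl3-knockout-specific and 5413 shared regions and 3885 shared genes, fewer by construction. A region specific in this setting may hold a weaker peak in the full lists of the other knockout. Set against the full lists, these Mettl14-knockout-specific regions were in both Mettl14 controls in 91.04%, both Mettl3 controls in 83.9%, both chromatin lists of the Mettl14 knockout in 85.03% and of the Mettl3 knockout in 57.3%, and the Mettl3-knockout-specific ones in 11.97%, 79.3%, 62.3% and 75.96%. The class differences were then 4.62 points outside genes and 3.17 antisense, and the mean Jaccard index between knockouts 0.470, against 0.516 with strand ignored. The cause was not tested. With summits within 100 nt as the rule the Mettl14-knockout-specific regions had 38.6% in the Mettl14 controls and 40.5% and 14.2% in the chromatin lists of the Mettl14 and Mettl3 knockout. The Mettl3-knockout-specific ones had 5.21% and 36.8% in the Mettl14 and Mettl3 controls, and 35.05% and 55.5% in those chromatin lists. The class differences were 12.8 points antisense, −7.76 in the first 10% and 23.2 in the last 10% of genes. With −log10 q of at least 5, Mettl14-knockout-specific regions had 42.8% in the Mettl14 and 24.04% in the Mettl3 controls. Replicate numbers are shared by the groups but nothing says that they pair libraries. With the replicate block the difference in covered length stayed 1.85 Mb (exact sign-flip p = 0.5, the smallest possible), and no call changed. Of 26 named calls, 24 held under each of the 2 other gene assignments and all 26 under the other settings run.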

Other observations

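Specific genes included more noncoding and pseudogene loci on the Mettl14 side. Long noncoding RNA genes held 191 Mettl14-knockout-specific regions (3.53%), 98 Mettl3-knockout-specific regions (2.23%) and 200 shared regions. Pseudogenes held 172 (3.18%), 58 (1.32%) and 162. Pseudogenes often have near-identical copies, between which reads can be split.

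On the Y chromosome, 11 of 39 regions were Mettl14-knockout-specific and 5 Mettl3-knockout-specific, and on the X chromosome 172 and 154 of 1021. The first EpiMark spike-in RNA held no peak in the 4 knockout lists of polyadenylated RNA and 1 in each of the 4 control lists.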
